A study of Mus musculus with 6 samples.

Results

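The genes described here are 33 enzyme genes of glycolysis, the glycerol phosphate shuttle and the pentose phosphate pathway, out of 54532 genes in the deposited table. They were taken by gene name from a fixed list, which was chosen with earlier results of these data known. All 33 names were present, and for Aldoa, which had a pair of rows, the row with the higher mean was taken.

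Poly-A RNA was sequenced from whole pancreatic islets of mice aged 7 weeks, in 2 groups of 3 libraries, and each library pooled the islets of 3 mice. The controls were Wtap flox/flox, which carry recombination sites in a Wtap gene that is not deleted. The second group is named Wtap-βKO in the labels, for loss of Wtap from insulin-producing β cells. The labels name neither the recombinase driver nor the deleted exons. WTAP belongs to the methyltransferase complex that places N6-methyladenosine (m6A) on RNA. Wtap itself was 11.2 ± 0.545 FPKM (fragments per kilobase of gene scaled to depth; mean ± SD, n = 3) in controls and 11.8 ± 0.552 in the Wtap-βKO-labelled libraries, so the deletion is not visible in the gene's total and every direction below is that of the libraries as labelled. Depth was 16353297 to 18682745 reads per library, and replicate 2 labelled Wtap-βKO stood apart from its group on the second principal component (16.2% of the variance).

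Glycolysis splits glucose into a pair of pyruvate molecules and yields ATP and NADH. β cells use this flux as their glucose sensor, because the ATP and the mitochondrial use of NADH close potassium channels and start insulin release. The glycerol phosphate shuttle carries cytosolic reducing power into the respiratory chain, a task that matters in β cells because they keep lactate dehydrogenase low. The pentose phosphate pathway branches off at glucose 6-phosphate, makes NADPH and ribose 5-phosphate, and returns carbon to glycolysis through transketolase and transaldolase.

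Of the 33 genes, 31 had a mean of at least 0.5 FPKM over the 6 libraries and were tested, 7 fell in the Wtap-βKO-labelled libraries and 3 rose. The 7 were Gpd2, Pfkfb2, Pklr, Rpia, Tkt, Pkm and Aldoc, and the 3 were Pgam2, Bpgm and Fbp1. Calls rest on limma with p-values adjusted by Benjamini-Hochberg over 15927 genes and a threshold of 0.05. Lower calls made up 22.6% of the tested members against 11.3% of all genes tested, and higher calls 9.68% against 8.77%, so the share of higher calls was near the background. In either direction, 20.1% of all genes were called. This background depends on expression level. In a fit of the 7830 genes with a mean of at least 5 FPKM, 1571 were called lower and 1026 higher, larger parts than among all genes. Whether the members differ from genes of like level was not tested. The median log2 fold change was -0.12 over the 31 genes and -0.005 over all genes. The groups did not overlap for 15 of the 31 genes (48.4%), against 41.3% of all genes tested. Without overlap, 4 of the 31 genes were higher and 11 of the 31 lower, where the background is 19.1% and 22.1% of all genes tested.

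The members spanned a wide range of levels, from Fbp2 at 0.0259 ± 0.0449 FPKM in controls to Pkm at 141 ± 6.55. Summed over the 33 genes, FPKM ran from 708 to 714.3 in controls and from 562.3 to 639.4 in the Wtap-βKO-labelled libraries. The sum over all genes was also lower, at 416676 to 429748 in controls and 367826 to 404754 in the Wtap-βKO-labelled libraries. Its part in the enzyme sums was not tested. Replicate 2 of the latter group was the highest of its 3 libraries for 17 of the 31 tested genes (54.8%, against 39.1% of all genes tested). Without it, 8 of the genes were called lower and 3 higher.

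**Figure D1:**
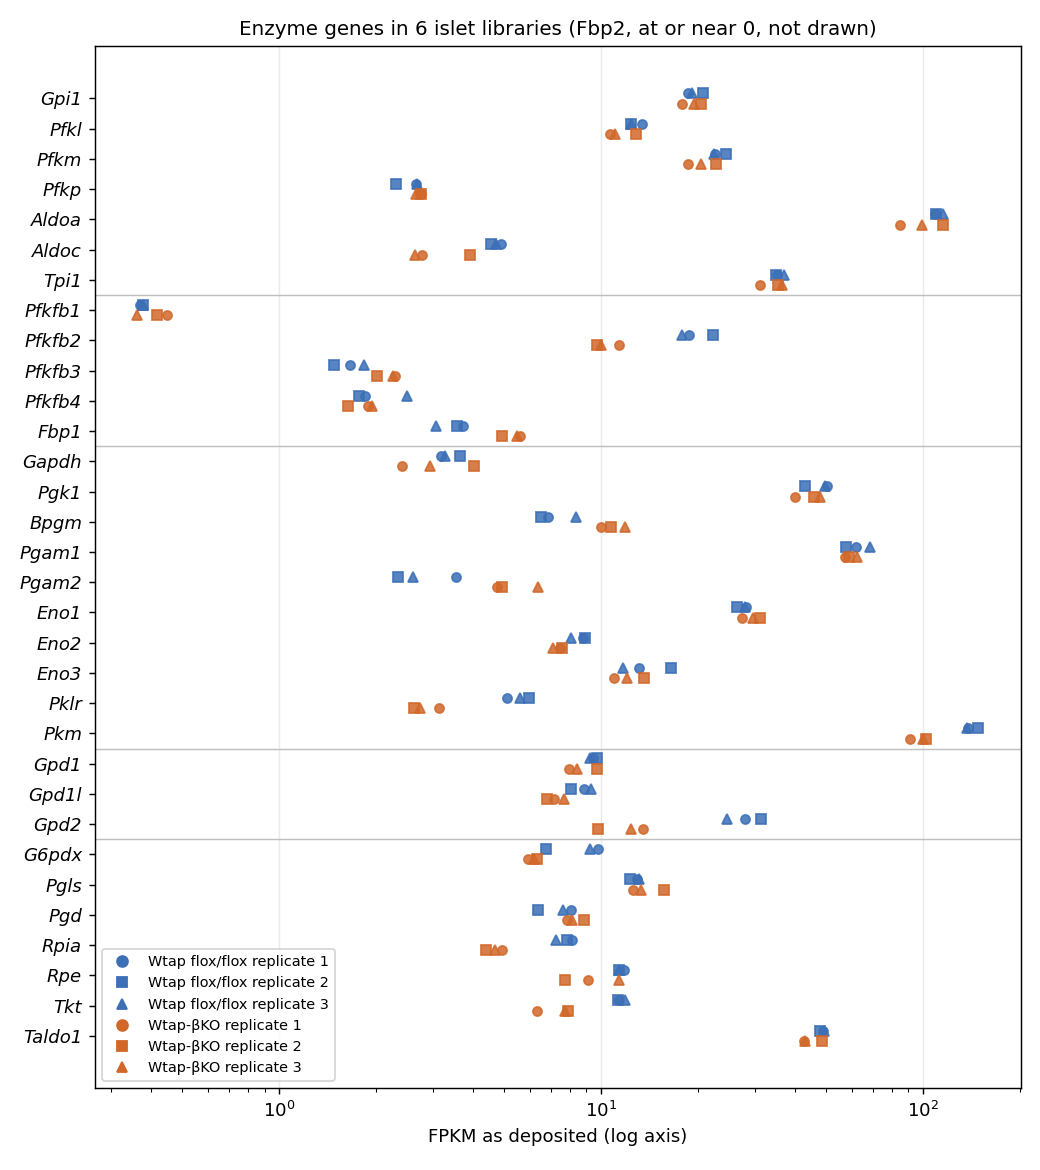
FPKM (log axis) of 32 enzyme genes in each library, with controls in blue above and libraries labelled Wtap-βKO in orange below, marker shape giving the replicate and grey lines separating the roles. The colours separate clearly for Pfkfb2, Pklr, Pkm, Gpd2, Rpia and Tkt, while most glycolytic genes between Gpi1 and Eno3 overlap or nearly touch.

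The values come from whole islets, so fewer cells of a type and less RNA per cell cannot be told apart. Of 9 β-cell markers 7 were called lower, and their summed FPKM was 134300 to 154200 in controls and 81580 to 92160 in the Wtap-βKO-labelled libraries. Of 8 α-cell markers 5 were called higher, with sums of 21350 to 25550 and 33900 to 44760. Stellate and fibroblast markers (5 of 8 tested called higher; sums of 49.2 to 59.6 and 72.2 to 83.1) also moved with the groups, as did δ- and PP-cell (2 of 5; 15580 to 17460 and 18470 to 34650) and macrophage markers (1 of 8; 101 to 111 and 120 to 134). Of 12 tested acinar markers limma called 2 higher and voom 7, with a median log2 fold change of 0.57, and their sums were 156 to 270 and 257 to 363.2. Lymphocyte markers (2 of 3 tested called higher and 1 lower; 11.6 to 14.1 and 48.3 to 56.8) and 1 adipocyte marker (of 1 tested, with Plin1 and Lep at 0) were also called, as were 1 of 8 ductal markers (higher) and 2 of 7 of glia and neurons (lower). Of 8 endothelial markers limma called 0, voom called 0, and 3 were higher at an unadjusted p under 0.05. The part of these shifts in the results below was not tested.

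The glycerol phosphate shuttle held the largest fall. Gpd2 encodes the mitochondrial glycerol-3-phosphate dehydrogenase, which passes electrons to the respiratory chain, and it spans 57237635 to 57370719 of chromosome 2 on the plus strand (GRCm38). Its FPKM was 28.1, 31.5 and 24.6 in controls and 13.5, 9.77 and 12.4 in the Wtap-βKO-labelled libraries, each time in the order of replicates 1 to 3, which is kept for all values below. All 3 control values lay well above the other 3, a 2.36-fold fall (log2 fold change -1.18 with SE 0.13, limma adjusted p = 0.00205). Its exons share 7.44% of their bases with A930012O16Rik on the opposite strand, which fell with it from 1.43 ± 0.387 to 0.637 ± 0.175 FPKM (adjusted p = 0.0494 by limma).

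The cytosolic partners, which reduce dihydroxyacetone phosphate with NADH, were not called. Gpd1 was 9.46 ± 0.233 and 8.67 ± 0.909 FPKM, and the groups overlapped (adjusted p = 0.336 by limma). Gpd1l, the other cytosolic form, was 8.72 ± 0.605 and 7.20 ± 0.437 with no overlap, and missed the threshold (log2 fold change -0.24 with SE 0.07, limma adjusted p = 0.0593; 0.0324 by voom and 0.0400 with a mean of at least 5 FPKM). The FPKM of Gpd2 per summed FPKM of Gpd1 and Gpd1l was 1.54, 1.77 and 1.33 in controls and 0.895, 0.593 and 0.772 in the Wtap-βKO-labelled libraries. The transcript balance of the shuttle thus lay above 1 in each control and below 1 in each of the others.

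At the end of glycolysis, both pyruvate kinase genes fell. Pyruvate kinase makes pyruvate and ATP from phosphoenolpyruvate, and Pkm, the form of most tissues outside the liver, is at 59656368 to 59679375 of chromosome 9. Pkm FPKM was 137.7, 148.5 and 136.7 in controls and 90.96, 102.2 and 99.7 in the Wtap-βKO-labelled libraries. It was the most abundant of the 33 genes in controls, and fell 1.44-fold with no overlap (log2 fold change -0.53 with SE 0.07, limma adjusted p = 0.00324). Of its exon bases 15.3% lie in exons of Gm49759 on the same strand, which had a mean of 8.68 FPKM over all libraries. How reads in that stretch were counted is not known, so the Pkm value is uncertain to that extent.

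Pklr, the liver and red-cell form that is also made in β cells, spans 89136142 to 89146784 of chromosome 3. Its FPKM was 5.12, 5.99 and 5.58 in controls and 3.13, 2.62 and 2.74 in the Wtap-βKO-labelled libraries, again without overlap. The fall was 1.96-fold (log2 fold change -0.78 with SE 0.09, limma adjusted p = 0.00203). Of its exon bases 22.0% lie in exons of Hcn3 on the opposite strand, and Hcn3 did not move with it (6.12 ± 0.425 and 7.07 ± 0.816 FPKM). The protocol in the labels describes no step that keeps strand, and the sources used here do not say how overlapping reads were counted, so the Pklr value is uncertain to that extent. The splice forms M1 and M2 of Pkm cannot be told apart in a value per gene.

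Sequences before RefSeq starts of the 3 genes that fell most are shown because motifs of known regulators of glycolytic genes were searched there. For Pklr and Pfkfb2 the start with the most informative match was taken, after the matches were seen, and for Gpd2 the first start. They are RefSeq sequences on GRCm38.p6, 5′ to 3′ on the strand of the gene, and bases that GENCODE M21 places in an exon are left out. Capitals mark matches on either strand to the motifs searched in the 250 bases before each start: ACGTG (the core of hypoxia response elements), CACGTG (an E-box), TGCTGAC (the core bound by MAF factors) and the carbohydrate response element pattern (a pair of E-box-like motifs at a fixed spacing, bound by ChREBP). ACGTG lies inside CACGTG, so those matches overlap. The Pklr stretch is chr3:89136373-89136571 on the plus strand before the second start, that of Pfkfb2 is chr1:130714577-130714826 on the minus strand, and that of Gpd2 is chr2:57237428-57237634 on the plus strand. The Pklr and Pfkfb2 stretches lie inside the spans of those genes (89136142 to 89146784 and 130689182 to 130729253), not before them.
Pklr: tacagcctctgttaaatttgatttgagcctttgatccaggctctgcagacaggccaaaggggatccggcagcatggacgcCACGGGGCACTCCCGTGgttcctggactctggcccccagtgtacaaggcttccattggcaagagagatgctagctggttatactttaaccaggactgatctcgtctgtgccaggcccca
Pfkfb2: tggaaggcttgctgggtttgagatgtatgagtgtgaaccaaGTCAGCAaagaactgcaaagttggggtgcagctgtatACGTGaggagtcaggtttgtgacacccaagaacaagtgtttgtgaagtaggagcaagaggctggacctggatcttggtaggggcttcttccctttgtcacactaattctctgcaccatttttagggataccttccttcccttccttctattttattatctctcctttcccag
Gpd2: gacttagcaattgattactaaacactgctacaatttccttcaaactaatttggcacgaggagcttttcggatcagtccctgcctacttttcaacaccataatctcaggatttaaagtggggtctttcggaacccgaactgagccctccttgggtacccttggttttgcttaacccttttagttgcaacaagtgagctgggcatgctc

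RefSeq held 50 starts for 32 of the 33 genes. The carbohydrate response element pattern was found before 1 of them, the second Pklr start, as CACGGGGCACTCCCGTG from 170 to 154 bases before it, and before 0.387% of all 32851 starts. TGCTGAC was found before 2 starts, both of Pfkfb2, against 3.81% of all starts. CACGTG occurred before 5 of the 50 starts (6.02% of all starts), in Fbp2, Gpd1l, Pfkfb2, Pfkfb3 and Pfkm, and ACGTG before 14 (16.6% of all starts). Of the 10 genes that were called, 4 held any of these matches, namely Gpd2 (before another start than the one shown), Pfkfb2, Pklr and Pkm. Matches also lay before starts of Aldoa, Gpd1l, Pfkfb3, Pfkm, Pgam1 and Pgk1, which were not called, and of Fbp2, which was not tested. They were therefore not particular to the called genes. Values per gene do not separate starts.

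Of the PFKFB genes, which regulate phosphofructokinase-1, Pfkfb2 fell. Phosphofructokinase-1 commits fructose 6-phosphate to glycolysis, and fructose 2,6-bisphosphate, made and broken down by the PFKFB enzymes, is its strongest activator. Pfkfb2, at 130689182 to 130729253 of chromosome 1 on the minus strand, was 18.7, 22.2 and 17.8 FPKM in controls. It was 11.4, 9.69 and 10.02 in the Wtap-βKO-labelled libraries. The groups were far apart, a 1.89-fold fall (log2 fold change -0.85 with SE 0.10, limma adjusted p = 0.00215). Its exons share 19.5% of their bases with other genes, Gm29427 on the same strand and Yod1 on the opposite strand. Gm29427 was 0.334 ± 0.180 and 0.565 ± 0.280 FPKM, too low to be tested, and Yod1 was 3.45 ± 0.0760 and 3.80 ± 0.312.

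The other PFKFB genes were far lower. Pfkfb3, the form with the highest kinase to phosphatase activity, was 1.65, 1.48 and 1.83 FPKM in controls and 2.29, 2.01 and 2.26 in the Wtap-βKO-labelled libraries. Its groups did not overlap, but it did not pass the test (log2 fold change 0.26 with SE 0.09, limma adjusted p = 0.0918; 0.0362 by voom on recovered reads). Pfkfb4 was 2.04 ± 0.403 and 1.82 ± 0.162, and Pfkfb1 was too low to be tested (0.375 ± 0.00498 and 0.409 ± 0.0446). As a share of the summed FPKM of the 4 genes, Pfkfb2 took 82.9%, 86.0% and 79.1% in controls and 71.0%, 70.5% and 68.8% in the others. This difference of -12.6 percentage points gave p = 0.1 in a two-sided exact permutation test (n = 3 per group; adjusted p = 0.12 over the 6 isozyme shares), the smallest p that 3 against 3 allow.

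The phosphofructokinase-1 genes themselves were not called. Pfkm, the muscle form, was 23.1 ± 1.11 and 20.6 ± 2.10 FPKM, Pfkl, the liver form, was 12.7 ± 0.588 and 11.5 ± 1.17, and Pfkp, the platelet form, was 2.55 ± 0.208 and 2.72 ± 0.0555. Their adjusted p-values by limma were 0.208, 0.266 and 0.579. Summed, the 3 genes came to 38.6, 39.1 and 37.5 in controls and 32.0, 38.4 and 34.1 in the Wtap-βKO-labelled libraries, where only replicate 2 reached the control range. The Pfkp share of that sum was 6.65% ± 0.655 and 7.85% ± 0.710 (n = 3, exact permutation test, p = 0.1), with replicate 2 labelled Wtap-βKO at 7.18% just above the highest control at 7.15%.

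The opposing enzyme rose. Fbp1 encodes fructose-1,6-bisphosphatase, which reverses the phosphofructokinase step in gluconeogenesis, and spans 62864753 to 62888282 of chromosome 13 on the minus strand. Its FPKM was 3.72, 3.57 and 3.07 in controls and 5.61, 4.92 and 5.49 in the Wtap-βKO-labelled libraries, with a clear gap between the groups. It rose 1.545-fold (log2 fold change 0.51 with SE 0.09, limma adjusted p = 0.00892). Per 100 FPKM of the phosphofructokinase-1 genes, Fbp1 was 8.99 ± 0.741 in controls and 15.5 ± 2.41 in the others. Fbp2, the muscle form, had 0 to 4 reads per library and was not tested.

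**Figure D2:**
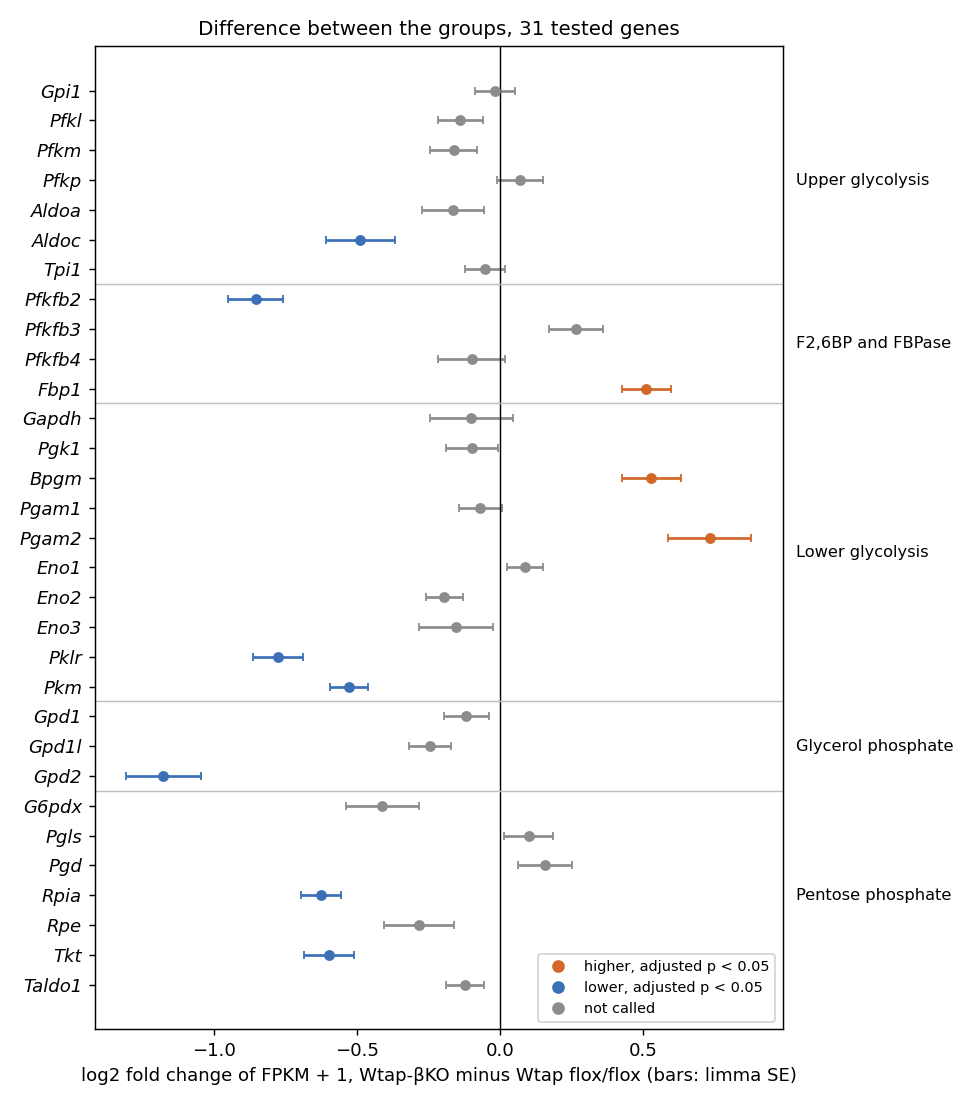
Log2 fold change of FPKM + 1 (Wtap-βKO minus Wtap flox/flox) of the 31 tested genes, with limma's standard error as bars, 7 genes called lower in blue, 3 called higher in orange and 21 not called in grey. Called genes are found in each role, and the upper glycolytic genes lie near 0 apart from Aldoc.

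The steps from glucose 6-phosphate to triose phosphate held 1 call. Gpi1, the isomerase that opens the pathway, was 19.5 ± 1.05 and 19.2 ± 1.302 FPKM, and Tpi1, triose phosphate isomerase, was 35.7 ± 1.08 and 34.4 ± 2.82. Aldoa, the main aldolase gene, was 108.5, 109.8 and 115.4 FPKM in controls and 85.04, 115.4 and 98.99 in the Wtap-βKO-labelled libraries. Replicate 2 of that group lay among the controls and the other 2 below them (log2 fold change -0.17 with SE 0.11, limma adjusted p = 0.322). Aldoc, the brain-type aldolase at 78322968 to 78327781 of chromosome 11, was 4.90, 4.54 and 4.72 in controls and 2.78, 3.90 and 2.65 in the others. It fell 1.52-fold (log2 fold change -0.49 with SE 0.12, limma adjusted p = 0.0320). The call was lost when any single library except Wtap-βKO replicate 2 was left out (adjusted p = 0.0775 to 0.097), without a filter on low values (0.0761), with reads scaled to their total (0.0579) and with the replicate number as a block (0.0599).

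In the middle of glycolysis, from glyceraldehyde 3-phosphate to phosphoenolpyruvate, the abundant genes were not called and a pair of scarcer ones rose. Pgk1, phosphoglycerate kinase, was 47.7 ± 4.07 and 44.5 ± 4.02 FPKM. Pgam1, the main phosphoglycerate mutase, was 61.8, 57.6 and 68.2 in controls and 57.2, 58.9 and 62.2 in the Wtap-βKO-labelled libraries, with wide overlap (log2 fold change -0.07 with SE 0.07, limma adjusted p = 0.551). Eno1, the most abundant enolase gene here, was 27.5 ± 0.965 and 29.3 ± 1.91, and Eno3, the muscle form, was 13.7 ± 2.43 and 12.2 ± 1.34. Eno2, the neuronal and endocrine form, was 8.57 ± 0.466 and 7.36 ± 0.242 with no overlap, and missed the threshold (adjusted p = 0.0753 by limma). Its share of enolase FPKM was 17.2% ± 0.341 and 15.1% ± 1.03 (n = 3, exact permutation test, p = 0.1).

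Gapdh, which oxidises glyceraldehyde 3-phosphate and is a common reference gene, was listed at only 3.18, 3.65 and 3.28 FPKM in controls and 2.41, 4.01 and 2.93 in the others. The groups overlapped, and replicates 1 and 2 labelled Wtap-βKO were the lowest and the highest of the 6. The table gives Gapdh a length of 4133 bases, against 1420 for its longest coding transcript in GENCODE M21. Of the 50-base windows of its transcripts, 25.1% also occur in transcripts of other genes, 223 in all, and of its 150-base windows 18.1% do. The same share of 150-base windows was 49.4% for Pgk1, 32.2% for Pgam1, 16.5% for Eno1 and 7.22% for Pkm. The sources used here do not say how reads that match several genes were counted, so the levels of these genes are uncertain, and their part in the low Gapdh level was not tested.

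Pgam2, the muscle form of phosphoglycerate mutase, at 5801640 to 5803733 of chromosome 11 on the minus strand, was 3.53, 2.34 and 2.61 FPKM in controls. It was 4.74, 4.92 and 6.35 in the Wtap-βKO-labelled libraries, on 31 to 92 reads per library. All 3 lay above the controls, a 1.89-fold rise (log2 fold change 0.73 with SE 0.15, limma adjusted p = 0.0157; 0.0522 without control replicate 2 and 0.0556 without control replicate 3). Pgam2 took 4.33% ± 0.941 of the FPKM of both mutase genes in controls and 8.21% ± 0.921 in the others. None of its windows occur in another gene. Of 10 striated muscle markers, Myh1, Myh2, Myh4, Tnnc2 and Myog were at 0 in every library, and the summed FPKM of all 10 was 1.61 to 3.07 in controls and 1.64 to 2.31 in the others, and limma called 0 of the 2 tested, voom called 0 too, and 0 had an unadjusted p under 0.05.

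Bpgm makes and removes 2,3-bisphosphoglycerate, the regulator of oxygen release in red cells, and spans 34476207 to 34505613 of chromosome 6. Its FPKM was 6.86, 6.51 and 8.37 in controls and 9.98, 10.7 and 11.9 in the Wtap-βKO-labelled libraries. The groups did not overlap, and it rose 1.499-fold (log2 fold change 0.53 with SE 0.10, limma adjusted p = 0.0145; 0.0543 without control replicate 1 and 0.0503 without control replicate 2). Red blood cell markers moved with it: their 6 genes summed to 29.9 to 34.2 FPKM in controls and 45.0 to 53.8 in the others, and 1 of 5 tested, Hbb-bs, was called higher. Their part in the Bpgm result was not tested.

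**Figure D3:**
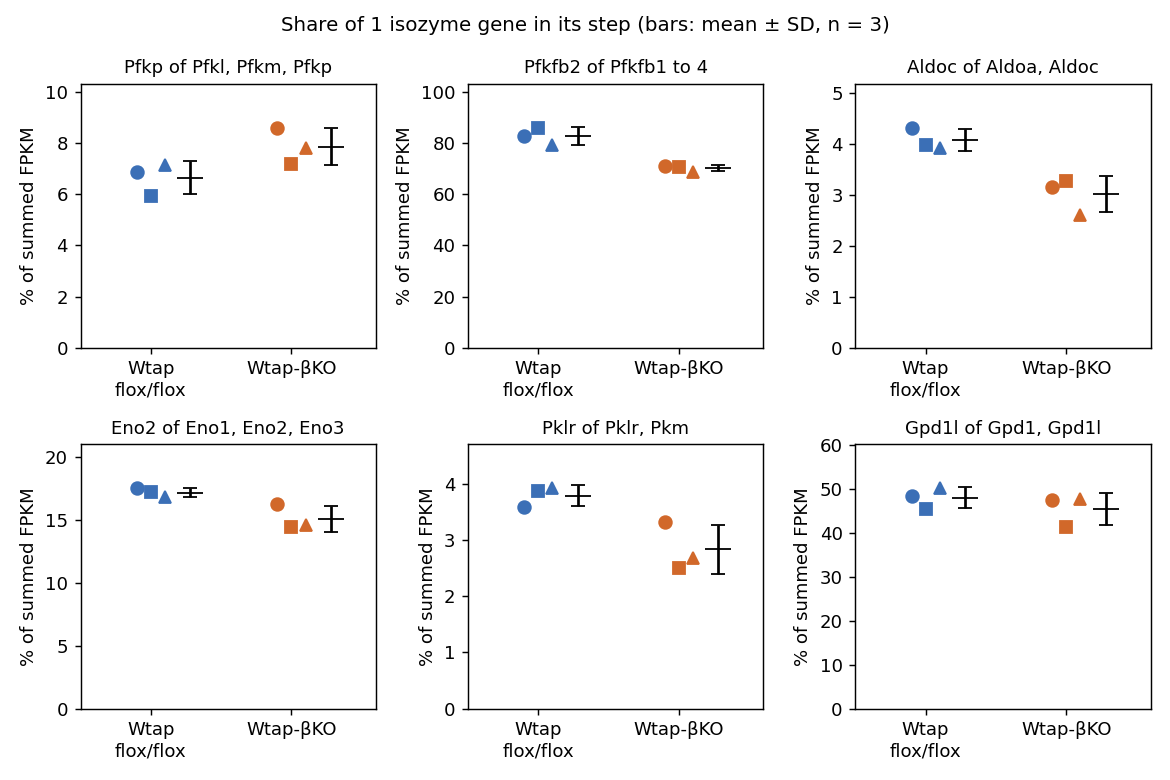
Share of 1 isozyme gene in the summed FPKM of its step (y axes in percent, from 0), by library, with mean ± SD (n = 3) beside the points. The groups do not overlap in 5 of the 6 panels, with the widest gap for Pfkfb2 (82.6% ± 3.44 and 70.1% ± 1.17), and overlap for Gpd1l.

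Aldoc took 4.07% ± 0.215 of aldolase A and C FPKM in controls and 3.01% ± 0.358 in the Wtap-βKO-labelled libraries, and Pklr took 3.79% ± 0.183 and 2.84% ± 0.434 of pyruvate kinase FPKM (n = 3, exact permutation test, p = 0.1 for each). Gpd1l took 47.9% ± 2.36 and 45.5% ± 3.62 of the cytosolic glycerol-3-phosphate dehydrogenase FPKM, within the spread between replicates (n = 3, exact permutation test, p = 0.4). That difference of -2.48 percentage points was -0.389 without Wtap-βKO replicate 2, -1.41 without control replicate 3 and -3.75 without control replicate 2. Adjusted over the 6 shares, p was 0.12 for 5 of them and 0.4 for Gpd1l.

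In the pentose phosphate pathway, the calls fell on the non-oxidative branch. Rpia, ribose 5-phosphate isomerase, at 70765720 to 70792232 of chromosome 6 on the minus strand, was 8.14, 7.84 and 7.25 FPKM in controls and 4.91, 4.40 and 4.69 in the Wtap-βKO-labelled libraries. It fell 1.66-fold with no overlap (log2 fold change -0.63 with SE 0.07, limma adjusted p = 0.00215). Tkt, the transketolase that moves 2-carbon units between sugar phosphates, at 30548359 to 30574720 of chromosome 14, was 11.3, 11.3 and 11.9 in controls and 6.30, 7.87 and 7.71 in the others. It fell 1.58-fold, again with a wide gap (log2 fold change -0.60 with SE 0.09, limma adjusted p = 0.00519).

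The partners of these enzymes were not called. Rpe, ribulose-phosphate epimerase, was 11.5 ± 0.215 and 9.38 ± 1.84 FPKM, with replicate 3 labelled Wtap-βKO (11.34) close to the controls (adjusted p = 0.151 by limma; 0.0335 without that replicate). Taldo1, transaldolase, was 48.7 ± 0.810 and 44.7 ± 3.39 (adjusted p = 0.226 by limma; 0.0364 without replicate 2 labelled Wtap-βKO, which lay at 48.6). Its controls spanned 47.8 to 49.4.

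The oxidative branch, which makes NADPH, held no call. G6pdx encodes glucose-6-phosphate dehydrogenase, its first and rate-limiting enzyme, and was 9.80, 6.74 and 9.25 FPKM in controls and 5.91, 6.33 and 6.19 in the Wtap-βKO-labelled libraries. The groups did not overlap, but control replicate 2 lay close to the other group (log2 fold change -0.41 with SE 0.13, limma adjusted p = 0.0622; 0.0109 without that replicate and 0.0212 by voom). Pgls, the lactonase, was 12.8 ± 0.438 and 13.8 ± 1.59, and Pgd, the second dehydrogenase, was 7.34 ± 0.888 and 8.27 ± 0.515, with overlap in both. The summed FPKM of the 4 non-oxidative genes per that of the 3 oxidative ones was 2.78 ± 0.262 in controls and 2.34 ± 0.101 in the others.

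The genes around the pathway were taken from 7 lists of 98 genes in all, of which 79 were tested, 17 fell and 10 rose. These shares, 21.5% and 12.7%, stand beside 11.3% and 8.77% of all genes tested, a background not matched for expression level. Among the genes named next, the calls of Hk1, Slc37a4, Pdha1, Ugp2 and Tigar held in 1 of the 6 fits without 1 library, those of Pgm3 and H6pd in 2 and that of Gfpt1 in 4, with adjusted p up to 0.137 by limma. The other calls held in all 6. At glucose entry, Slc2a2, the transporter GLUT2, fell from 178.7 ± 17.03 to 33.5 ± 2.50 FPKM, and G6pc2, the islet glucose-6-phosphatase, fell from 1018 ± 143 to 418 ± 37.4. Slc37a4, which carries glucose 6-phosphate into the endoplasmic reticulum, fell 1.59-fold (adjusted p = 0.0478 by limma), with replicate 2 labelled Wtap-βKO at 32.4 against 19.7 and 18.9. Hk1, a hexokinase of high glucose affinity, rose from 1.54 ± 0.239 to 2.36 ± 0.208. Of the 9 tested genes of this list 3 fell and 1 rose.

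At the exits of glycolysis, 4 of 14 tested genes fell and 1 rose. Pcx, pyruvate carboxylase, fell from 45.4 ± 2.84 to 25.5 ± 4.78 FPKM, Pdp2, a phosphatase that activates pyruvate dehydrogenase, fell 1.70-fold, and Pdha1, a subunit of that enzyme, fell 1.18-fold. Ldha, the lactate dehydrogenase subunit kept low in β cells, rose from 4.19 ± 0.427 to 6.60 ± 0.308. Per 100 FPKM of Pkm, Ldha was 3.22, 2.49 and 3.24 in controls and 6.96, 6.79 and 6.56 in the Wtap-βKO-labelled libraries. Of the 7 genes of the malate-aspartate shuttle, the other route for cytosolic NADH, limma called 0. At an unadjusted p under 0.05, 1 was lower (Got2) and 1 higher (Slc25a13), and voom called 0.

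Among 11 tested pentose phosphate and NADPH neighbours, 4 fell and limma called 0 higher (voom 0, and 1 with an unadjusted p under 0.05). Prps1, which turns ribose 5-phosphate into the nucleotide precursor PRPP, fell from 74.5 ± 0.395 to 56.0 ± 0.997 FPKM. The NADP-dependent isocitrate dehydrogenase genes Idh1 and Idh2 fell from 13.5 ± 0.461 to 8.86 ± 0.921 and from 60.7 ± 2.83 to 39.5 ± 4.94. H6pd, the pentose phosphate dehydrogenase of the endoplasmic reticulum, fell 1.25-fold.

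Of 9 tested genes of glycerol and triose side reactions, 2 rose and 2 fell. Pgp, the phosphatase of glycerol 3-phosphate and phosphoglycolate, rose from 32.3 ± 5.34 to 56.4 ± 3.08, and Gpat4, which acylates glycerol 3-phosphate, rose 1.23-fold. Tigar, a fructose-2,6-bisphosphatase, fell from 8.55 ± 0.894 to 6.71 ± 0.348. In the glycogen, fructose and hexosamine branches 3 of 16 tested genes fell, Gfpt1, Pgm3 and Ugp2, and 1 rose, Pgm1 (1.36-fold).

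Of 13 tested regulators of glycolytic genes, 5 rose and 1 fell. Txnip and Arrdc4, arrestin-like genes induced by glucose through ChREBP, rose from 151 ± 17.9 to 355 ± 34.9 FPKM and from 7.57 ± 0.191 to 19.5 ± 4.70. Epas1 (HIF-2α) rose 1.38-fold and Egln1, a prolyl hydroxylase that limits HIF, 1.29-fold. Mlxipl, which encodes ChREBP, was 87.9 ± 9.995 and 70.1 ± 6.06 and missed the threshold (adjusted p = 0.0635 by limma). Mlxipl was called lower by voom (0.0151), with the replicate block (0.0204), with a mean of at least 5 FPKM (0.0414) and without Wtap-βKO replicate 2 (0.0434). Hif1a was 13.1 ± 0.198 and 11.8 ± 0.234 (adjusted p = 0.103 by limma). Pklr, which is also a textbook ChREBP target, was called lower, and Txnip and Arrdc4 were called higher. The part of ChREBP in these calls was not tested.

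**Figure D4:**
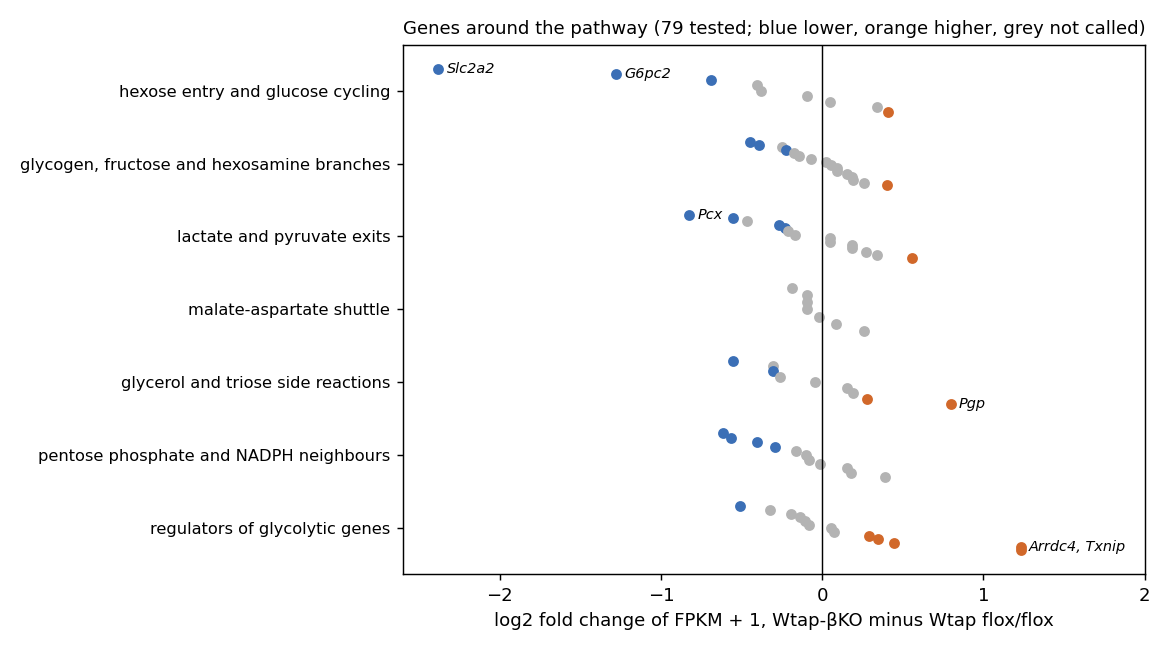
Log2 fold change of FPKM + 1 (Wtap-βKO minus Wtap flox/flox) of the 79 tested genes around the pathway, by list, with 17 called lower in blue, 10 called higher in orange and the others in grey. Slc2a2 and G6pc2 lie farthest to the left and Txnip and Arrdc4 farthest to the right.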

How the data were processed

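Expression was deposited by the authors as FPKM per gene, with the gene's length beside it per the file headers. The submitters' processing notes name HISAT2 2.0.5, CASAVA, DESeq2 1.20.0 and featureCounts 1.5.0-p3, and as builds mm10 and GRCm38, with no role or order. Dividing FPKM times length by its smallest step gave whole reads, within 0.01, for 100.0% of values above 0. The reads so recovered served for depth, voom and rescaling. The deposited scaling implied library sizes of 0.952 to 0.988 times their sums in controls. In the Wtap-βKO-labelled libraries these were 1.04 to 1.07 times the sums. Deposited FPKM thus sets that group lower against controls than scaling to total reads does. FPKM was used without further scaling.

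Genes with a mean of at least 0.5 FPKM were tested as log2(FPKM + 1), which understates the change of low genes, with limma 3.58.1 (lmFit, eBayes with a variance trend) in R 4.3.3, two-sided. Folds are ratios of mean FPKM, and SE is limma's moderated standard error. Isozyme shares were compared with an exact permutation test in SciPy 1.17.1. The labels call the 3 libraries of a group independent biological replicates. On simulated data with 15932 genes fitted, 21 of 98 genes changed 1.5-fold and 69 of 96 changed 2-fold were called, none in the wrong direction, as were 14 of 15738 genes left unchanged. The simulation gave every gene the same dispersion, changed far fewer genes than were called here, and set no library apart. These rates therefore need not hold for the real libraries.

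The enzyme genes, the gene lists and the tests were chosen with earlier results of these data known. All 33 enzyme genes are named; values in every library are given for those called, for those not called with a mean of at least 50 FPKM, and for those not called whose groups do not overlap and whose means differ at least 1.3-fold. Of the lists around the pathway, those named are called genes with a mean of at least 1 FPKM, at most 4 a list, by adjusted p, and Mlxipl, Hif1a, Got2 and Slc25a13 were named after their values were seen. Coordinates are those of the table, and 32 of 33 equal those of GENCODE M21 (GRCm38). Alternatives were other pseudocounts, filters, scalings and variance models, voom, the replicate block and leaving out each library.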

Additional observations from a re-analysis of the deposited data

How the results depend on the processing

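No called enzyme gene changed direction under any alternative run. Of the 7 lower calls, those of Gpd2, Pfkfb2, Pklr, Pkm, Rpia and Tkt held in every alternative in which the gene was tested, as did that of Fbp1 among the 3 higher ones. With one library left out, the enzyme genes called numbered 1 to 3 higher and 6 to 8 lower. With a mean of at least 5 FPKM, 1 was higher, since fewer genes were tested. After scaling by total recovered reads 4 enzyme genes were higher, with Pfkfb3 added (adjusted p = 0.0464 by limma). Aldoc was then no longer called lower. The genes around the pathway numbered 7 to 17 lower and 8 to 10 higher with one library left out, 11 lower without a filter on low values or without a variance trend, and 17 higher with 9 lower after scaling by total recovered reads. That scaling moved the median of all genes to 0.08 on the log2 scale and gave 2336 higher and 1093 lower genes of all tested (68.1% higher, against 43.7% of the 3195 calls as deposited); scaling to total FPKM without the 50 highest genes, chosen after the data were seen, gave 53.8% higher. Leaving one library out gave 782 to 1380 higher and 1027 to 1853 lower genes, against 1397 and 1798. Directions near 0 that turned, none called, were Gpi1 (0.032 with quantile normalization, 0.021 without the 50 highest genes and 0.09 with total reads), Tpi1 (0.001 and 0.058 with quantile normalization and total reads), Pgk1 (0.014 with total reads) and Pgam1 (0.043 with total reads). Without one library Gpi1 ran from -0.06 to 0.033, Tpi1 from -0.096 to 0.014, Gapdh from -0.252 to 0.026 and Pfkfb4 from -0.164 to 0.007. Isozyme shares kept their direction in the alternatives run, but not their size: the Pfkp difference of 1.21 percentage points was 0.7004 with quantile normalization (exact permutation p = 0.2) and 2.71 on recovered reads, and the Pklr difference of -0.956 was -0.633 on recovered reads. The shared replicate numbers were not taken as pairs, and the labels do not settle whether they are. Correlations of same-numbered deviations were 0.03, 0.04 and 0.02, with each library correlating best with its own number. This is a hint from the data and not the design. With the replicate block 3 enzyme genes were higher and 6 lower, and 1148 and 1490 of all genes. The cause of these changes was not tested. Libraries of this depth gave Fbp2 0 to 4 reads, so no difference was detectable there.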

Other observations

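Some genes around the pathway were too low for the test, and those named here were chosen after their values were seen. Pck1, the cytosolic phosphoenolpyruvate carboxykinase that opposes pyruvate kinase in gluconeogenesis, had 0, 1 and 3 reads in controls and 53, 40 and 54 in the libraries labelled Wtap-βKO, or 0.0226 ± 0.0248 and 0.795 ± 0.133 FPKM (n = 3 each). Without a filter on low values it was called higher (adjusted p = 0.00437 by limma, with a log2 fold change of 0.81). Me3, a mitochondrial malic enzyme, had 33, 45 and 40 reads in controls and 160, 123 and 153 in the others (log2 fold change 0.42, adjusted p = 0.0196 by limma without a filter). Hexokinase 2 (Hk2) and the lactate carrier gene Slc16a3 were low in both groups, at 0.123 ± 0.0489 and 0.138 ± 0.0654 FPKM and at 0.210 ± 0.0496 and 0.192 ± 0.0307.

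The letters GGACT, a common form of the m6A consensus, were counted in the longest coding transcript of each tested gene that has one. The median was 1.44 per kilobase over the 7 enzyme genes called lower (0.310 for Tkt to 2.88 for Pkm), 0.901 over the 3 called higher (0 for Pgam2) and 1.04 over the 21 not called. Over all tested genes with a coding transcript it was 0.991 for 1588 lower, 1.16 for 1240 higher and 1.04 for 9864 uncalled genes. A match is not evidence of methylation. The second row named Aldoa, not used above, was 1.89 ± 0.248 and 1.32 ± 0.203 FPKM (log2 fold change -0.32, SE 0.11, not called).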
